A study of Mus musculus with 8 samples.

Results

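The interleukin 1 (IL-1) family is a group of cytokines, receptors and inhibitors through which skin reports injury and starts inflammation. The genes described here are Il1a, Il1b, Il18, Il33 and Il1f9, which encode cytokines, Il1rn and Il1f5, which encode receptor antagonists, Il1r1 and Il1r2, which encode receptors, and Il6, a cytokine of another family. Il1f9 and Il1f5 are also named Il36g and Il36rn and belong to the IL-36 branch. They were chosen by name, with earlier results of these data known, and are 10 of the 54838 genes in the count tables. All 10 had enough counts to be among the 17839 genes tested.

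RNA was sequenced from mouse epidermis, the epithelial layer that covers the dermis, after its separation from skin with trypsin. The libraries form 4 groups of 2 biological replicates, namely Ovol1/2 iDKO at 25 DPI, control at 25 DPI, Ovol1/2 iDKO at 52 DPI and control at 52 DPI. The products of Ovol1 and Ovol2 are DNA-binding zinc finger proteins of epithelial cells. The labels spell out neither iDKO nor DPI, and they give no allele, Cre driver, inducing agent, strain or age, nor any treatment or allele that the control mice share with the others.

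In the IL-1 pathway, IL-1α, IL-1β and IL-36γ, the products of Il1a, Il1b and Il1f9, bind receptors that pair with the accessory protein IL1RAP and signal through MYD88 and the IRAK kinases to the transcription factor NF-κB. Il1rn and Il1f5 products occupy these receptors without signalling, and IL1R2 is a decoy that binds IL-1 and passes on no signal. Keratinocytes are a known source of IL-1α, IL-33 and IL-36γ and respond to IL-1 and IL-36 with chemokines and IL-6. IL-1β and IL-18 are made as precursors that caspase-1 cleaves, so a transcript level does not give the amount of active cytokine.

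The 8 libraries held 9824307 to 50711381 counts. Values per library are CPM, read counts brought to a common library size with TMM factors, and each library labelled iDKO is set beside the control library of the same time and replicate number, which gives 4 pairs. Ovol1 and Ovol2 counts were higher, not lower, in the library labelled iDKO of all 4 pairs. Ovol1, for example, was at 148 and 204 CPM in 25 DPI libraries labelled iDKO, against 134.9 and 36.3 CPM in control. Whole-gene counts do not show the loss of single exons, so these genes leave the labels unchecked, and each direction below belongs to libraries that carry the label iDKO. In the replicate 2 libraries 95.4% to 95.7% of strand-assigned counts lay on the second strand, against 49.8% to 49.97% in the replicate 1 libraries, so replicates differ in more than the animal. Ddx3y, a Y-linked gene, had 0 CPM in every 52 DPI library and 39.4 to 113.5 CPM in those of 25 DPI, so sex and time cannot be told apart. Keratinocyte markers, 8 of 8 detected in every library, summed to 47550 and 29690 CPM in iDKO and 50560 and 49350 CPM in control at 52 DPI, and to 58460 and 41950 CPM in iDKO and 47440 and 42230 CPM in control at 25 DPI.

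Il1r2, Il33 and Il1rn were the most abundant members per length, and Il1a the least. On the scale of CPM per kilobase of exon, the median over the 8 libraries was 67.4 for Il1r2, 35.4 for Il33, 18.7 for Il1rn, 10.7 for Il1r1, 2.86 for Il1f5, 2.06 for Il1f9, 1.62 for Il1b, 1.59 for Il18, 1.07 for Il6 and 0.590 for Il1a. By these medians the decoy receptor exceeded the signalling receptor, and each antagonist exceeded the agonists it opposes. Neighbours in this order overlapped in their ranges over the libraries, and the ranges of Il1r1 (5.17 to 19.8 CPM per kilobase) and Il1f5 (2.26 to 5.81) overlapped only slightly. The 4 most abundant genes had at least 403 counts in each library. The 6 others were low, with as few as 2 counts for Il1a and 4 for Il1f9.

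**Figure D1:**
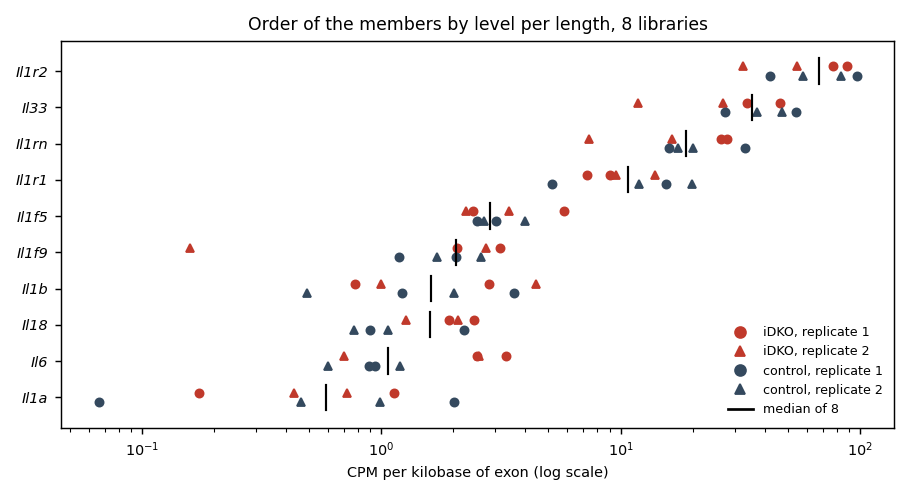
Level of each member on the scale of CPM per kilobase of exon (log axis) in the 8 libraries, with circles for replicate 1, triangles for replicate 2, red for libraries labelled iDKO (upper row of each gene), dark blue for control and a black bar for the median of 8. The medians run from 67.4 for Il1r2 to 0.590 for Il1a, and Il1f9 has a single point far below its others, at 0.159.

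At 25 DPI Il6 was the member with the widest gap between groups, and no member passed the test across all genes in any comparison. edgeR's quasi-likelihood test called 0 of the 10 members at an adjusted p under 0.05 at 25 DPI, where it called 0.0% of all tested genes. At an unadjusted p under 0.05 it picked out 1 member, Il6, where 0.42% of all genes lay under that value. DESeq2 without a block also called 0 members (0.0112% of all genes), as did DESeq2 with the replicate number as a block within each time (0.538% of all genes). At 52 DPI edgeR called 0 members (0.0% of all genes; 0 members at an unadjusted p under 0.05, where 0.802% of all genes lay), and DESeq2 called 0 without the block (0.00561% of all genes) and 0 with it (0.196%). Across both times edgeR called 0 members (0.0% of all genes), with Il6 alone at an unadjusted p under 0.05 (0.729% of all genes), and DESeq2 called 0 without the block (0.0448%) and 0 with it (0.392%). For the difference between the times, edgeR called 0 members (0.0% of all genes; 0 members at an unadjusted p under 0.05, 0.779% of all genes), and DESeq2 called 0 without the block (0.0% of all genes) and 0 with it (0.213%).

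**Figure D2:**
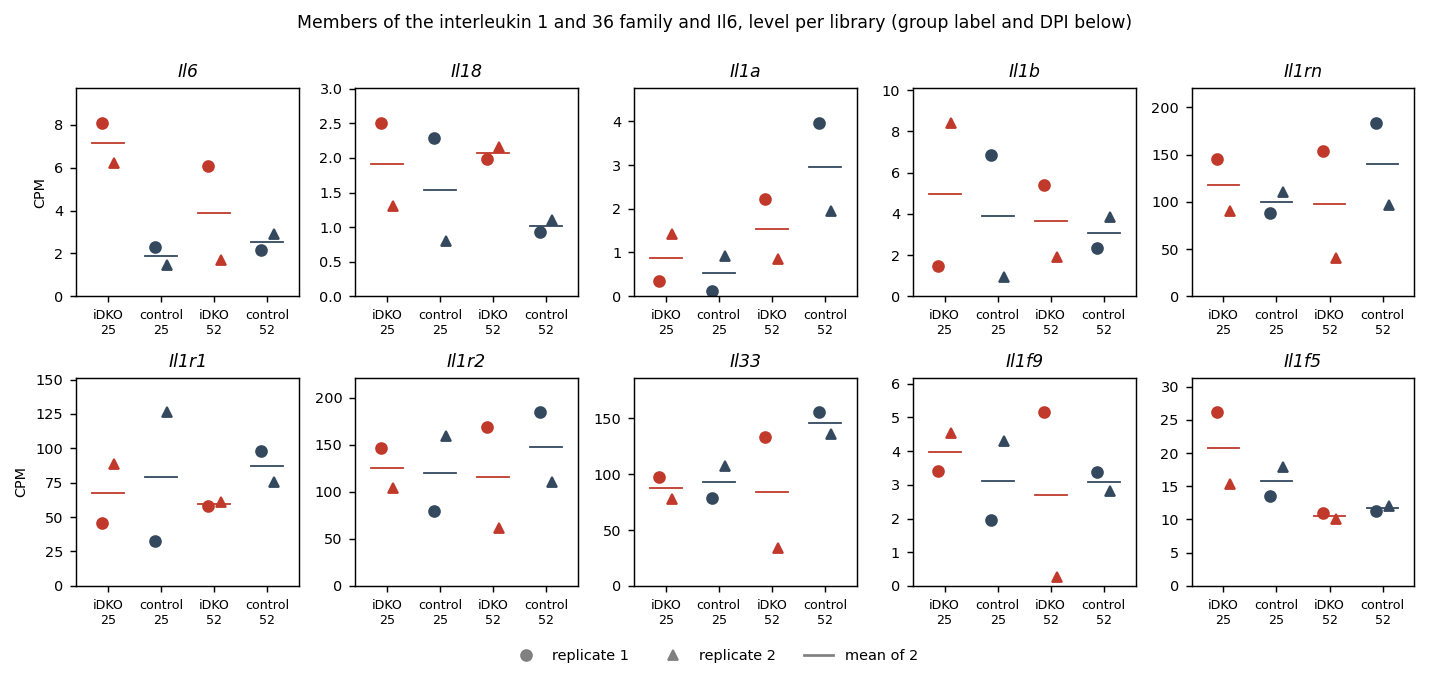
Level of each member in CPM (linear axes from 0, a scale of its own for each gene) in the 8 libraries, grouped by label and DPI, with circles for replicate 1, triangles for replicate 2 and a line at the mean of the 2. Il6 at 25 DPI has both iDKO libraries (8.10 and 6.24) above both control libraries (2.29 and 1.45), and for Il1rn, Il1r2, Il33, Il1f9 and Il1f5 the lowest point is replicate 2 of iDKO at 52 DPI.

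Il6 (ENSMUSG00000025746, GRCm38 chromosome 5, 30013114 to 30019981, plus strand) encodes a cytokine that NF-κB induces and that acts through the receptor subunits Il6ra and Il6st and the transcription factor STAT3. Its 25 DPI levels were 8.10 and 6.24 CPM in libraries labelled iDKO, against 2.29 and 1.45 CPM in control. It averaged 7.17 ± 1.31 CPM in iDKO and 1.87 ± 0.593 CPM in control (SD, n = 2 each), and the groups did not overlap. Il6 was the only member with both iDKO libraries above both control libraries at 25 DPI, a pattern that 5.39% of all tested genes had. Values of 6.09 and 1.70 CPM in iDKO stood against 2.15 and 2.90 CPM in control at 52 DPI. There the replicate 1 pair kept the order seen at 25 DPI and the replicate 2 pair had the opposite one.

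The log2 fold change of Il6, iDKO over control, was 1.94 (SE 0.78) at 25 DPI, with an unadjusted p of 0.0396 and an adjusted p of 1.00 by edgeR's quasi-likelihood test. It was 0.63 (SE 0.76, adjusted p = 1.00 by edgeR) at 52 DPI and 1.29 (SE 0.56, adjusted p = 1.00 by edgeR) across both times. Within pairs the log2 ratio was 1.82 (95% counting interval 1.22 to 2.45) and 2.11 (1.70 to 2.52) at 25 DPI. At 52 DPI it was 1.50 (1.07 to 1.95) for replicate 1 and −0.77 (−1.55 to −0.01) for replicate 2. These exact binomial intervals cover counting error only and not the spread between animals. The difference between the effects at 52 and 25 DPI was −1.31 (SE 1.08, adjusted p = 1.00 by edgeR). Leaving out each library in turn kept the 25 DPI value between 1.64 and 2.28, and the 52 DPI value ran from −0.57 without iDKO replicate 1 of 52 DPI to 1.27 without iDKO replicate 2.

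DESeq2 with the replicate block gave Il6 a log2 fold change of 1.79 across both times and an adjusted p of 0.00327 when the replicate 2 pair of 52 DPI was left out. With any other pair left out the value was 0.89 to 1.12 and was not called. This leave-out of pairs was chosen after the data were seen. Without a pair its time holds 1 library per genotype, so the p value of an effect at that time has no replicate of its own and assumes the spread of the pairs at the other time. Such fits varied widely, with 41 to 487 genes called at 25 DPI.

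Dermal fibroblasts are a known source of IL-6, and the summed level of their 8 listed markers was higher in iDKO within each pair, with Lum at 0 in 3 of the libraries. The sums were 51.7 and 293 CPM in iDKO and 30.5 and 169 CPM in control at 25 DPI. At 52 DPI they were 45.1 and 286.5 CPM in iDKO and 35.96 and 89.9 CPM in control, also in the replicate 2 pair in which Il6 was lower in iDKO. Thy1, which T cells also express, made up most of every sum but that of iDKO replicate 2 at 25 DPI. In replicate 1 it was at 41.75 CPM in iDKO and 22.3 CPM in control at 25 DPI and 28.3 CPM in iDKO and 20.1 CPM in control at 52 DPI. In replicate 2 it was at 129 CPM in iDKO and 115 CPM in control at 25 DPI, and at 168 CPM in iDKO and 72.7 CPM in control at 52 DPI. Of the 8 markers only Col1a1 and Thy1 were higher in iDKO within all 4 pairs, and Col3a1 and Dcn, for example, were lower in iDKO in both replicate 1 pairs. edgeR without a block put 8 of 8 above 0 on the log2 scale at each time, whereas DESeq2 with the block gave −0.11 (SE 0.86) for Col3a1 and −0.16 (SE 1.98) for Dcn at 25 DPI. The part of these markers in the values of Il6 was not tested.

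The 250 bases before the first annotated start of Il6, Il18 and Il33 are shown because Il6 had the widest gap at 25 DPI, Il18 was the only member on the same side in all pairs, and Il33 had the lowest log2 fold change of the well-counted members at 52 DPI. The sequences are RefSeq's on GRCm38.p6, plus strand, at chr5:30012864-30013113 for Il6, chr9:50554450-50554699 for Il18 and chr19:29924863-29925112 for Il33. Capitals mark matches to the NF-κB letters, which read GGGATTTTCC in Il6 with any base allowed at the fifth place, the AP-1 letters TGANTCA and the C/EBP letters TTGCNNAA, searched on both strands.
Il6: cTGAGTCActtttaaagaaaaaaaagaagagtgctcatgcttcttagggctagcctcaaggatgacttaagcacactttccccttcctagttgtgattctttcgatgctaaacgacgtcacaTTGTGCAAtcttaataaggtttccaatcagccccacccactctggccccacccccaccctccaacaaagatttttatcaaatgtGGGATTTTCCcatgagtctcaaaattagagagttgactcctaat
Il18: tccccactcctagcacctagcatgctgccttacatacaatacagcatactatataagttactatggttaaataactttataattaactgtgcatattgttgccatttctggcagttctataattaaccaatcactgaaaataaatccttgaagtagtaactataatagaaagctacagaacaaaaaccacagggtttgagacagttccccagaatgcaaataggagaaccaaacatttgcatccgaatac
Il33: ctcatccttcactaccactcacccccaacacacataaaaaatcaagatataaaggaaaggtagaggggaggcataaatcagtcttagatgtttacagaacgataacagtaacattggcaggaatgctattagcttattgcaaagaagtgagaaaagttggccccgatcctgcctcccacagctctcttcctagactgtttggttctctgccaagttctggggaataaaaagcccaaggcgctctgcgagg

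The Il6 window holds the NF-κB letters from 44 bases before the start, the C/EBP letters from 128 bases and the AP-1 letters from 249 bases, and the Il18 and Il33 windows shown hold none of them. All 10 members matched the RefSeq table, with 15 promoters between them. Among the 32851 promoters of the table, 0.356% held the NF-κB letters, and of the members only Il6 did. The AP-1 letters were in 6.75% of promoters and in those of Il1rn, Il1a and Il6, and the C/EBP letters were in 9.56% and in those of Il1r1, Il1f5, Il6 and another promoter of Il33. CCGTTA, the core letters bound by OVOL proteins, were in 2.18% of all promoters and in 0 of the 15 member promoters. A match is a description of letters and not evidence of a bound site.

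Il18 (ENSMUSG00000039217, GRCm38 chromosome 9, 50554827 to 50581840, plus strand), which encodes a caspase-1-processed cytokine that acts on T cells and natural killer cells, was the only member above control in all 4 pairs, as were 6.73% of all tested genes, and 0 members were below control in all 4, as were 6.7% of all genes. The 25 DPI libraries held 2.51 and 1.31 CPM in iDKO, against 2.29 and 0.794 CPM in control, and these ranges overlapped. By 52 DPI the iDKO libraries held 1.98 and 2.16 CPM, against 0.927 and 1.10 CPM in control. At that time both iDKO libraries lay above both control libraries, as for 11.9% of all genes. By edgeR it had a log2 fold change of 1.03 (SE 0.84, adjusted p = 1.00 by edgeR) at 52 DPI and 0.31 (SE 0.84, adjusted p = 1.00 by edgeR) at 25 DPI. Il18 rested on 14 to 63 counts per library, and the interval of the replicate 1 ratio at 25 DPI, 0.13 (−0.71 to 0.94), spans 0. Leaving out each library in turn gave 0.91 to 1.15 at 52 DPI and −0.28 to 1.22 at 25 DPI.

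**Figure D3:**
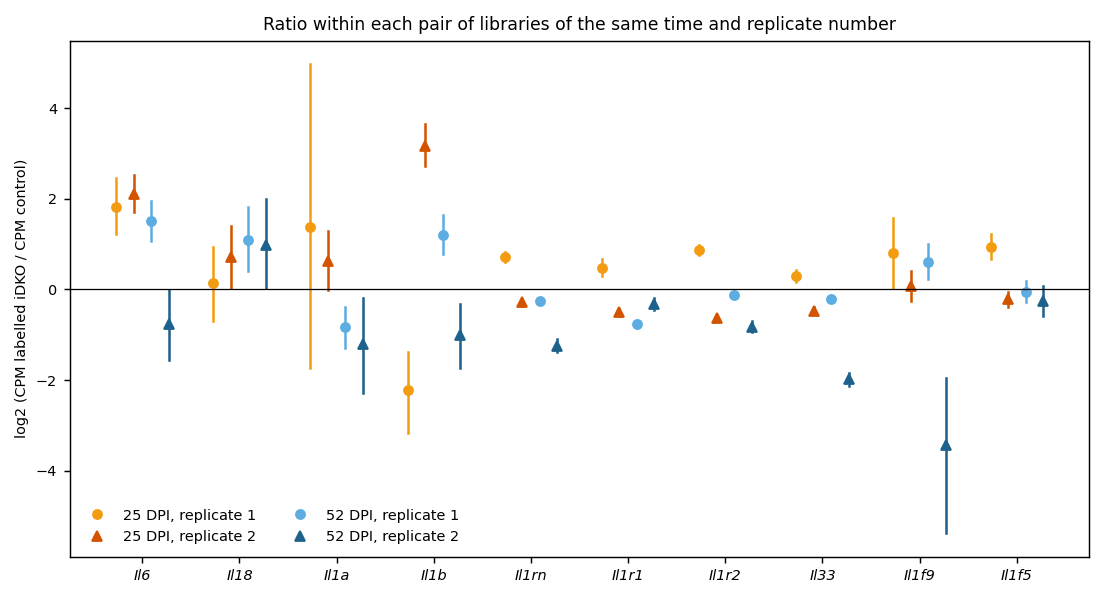
Log2 ratio of CPM, labelled iDKO over control, within each of the 4 pairs, with orange for 25 DPI, blue for 52 DPI, circles for replicate 1, triangles for replicate 2 and bars for the 95% exact binomial interval, which covers counting error only. Il18 has all 4 points above 0, and Il1b has points on both sides at each time, from −2.21 to 3.17.

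Il1a (ENSMUSG00000027399, GRCm38 chromosome 2, 129299610 to 129309972, minus strand) encodes IL-1α, an alarm cytokine that keratinocytes store. Its 25 DPI levels were 0.342 and 1.42 CPM in iDKO, against 0.131 and 0.913 CPM in control. Its 52 DPI levels were 2.23 and 0.850 CPM in iDKO, against 3.97 and 1.96 CPM in control. The iDKO library was thus the higher of both pairs at 25 DPI and the lower of both pairs at 52 DPI. Its log2 fold change was 0.74 (SE 1.15, adjusted p = 1.00 by edgeR) at 25 DPI and −0.94 (SE 1.14, adjusted p = 1.00 by edgeR) at 52 DPI. The difference between these, −1.67 (SE 1.62), had an adjusted p of 1.00 by edgeR.

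The replicate 1 ratio of Il1a at 25 DPI compares 3 counts in iDKO with 2 in control, and its log2 ratio of 1.39 has an interval of −1.74 to 4.97. Gm14023, an antisense gene, overlaps exons of Il1a, and the second-strand count of Il1a exceeded the count without strand in 3 of the 4 replicate 2 libraries. At 25 DPI these libraries held 63 counts of Il1a in iDKO and 62 in control on the second strand, against 39 and 46 without strand. At 52 DPI they held 11 counts in iDKO and 34 in control on the second strand, against 13 and 25 without strand. Scaled to CPM, the second-strand counts gave 2.29 in iDKO and 1.23 in control at 25 DPI, and 0.719 in iDKO and 2.66 in control at 52 DPI. Both pairs thus kept their order in CPM, while at 25 DPI the counts without strand were fewer in iDKO, the smaller of the 2 libraries.

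Il1b (ENSMUSG00000027398, GRCm38 chromosome 2, 129364570 to 129371139, minus strand) encodes IL-1β, which myeloid and Langerhans cells produce on activation. The 25 DPI libraries held 1.48 and 8.42 CPM in iDKO, against 6.86 and 0.933 CPM in control. Values of 5.40 and 1.90 CPM in iDKO stood against 2.34 and 3.84 CPM in control at 52 DPI. The pairs disagreed at each time, with log2 ratios of −2.21 (−3.17 to −1.38) and 3.17 (2.72 to 3.66) at 25 DPI and 1.21 (0.79 to 1.65) and −1.02 (−1.73 to −0.33) at 52 DPI. The fitted log2 fold changes were 0.37 (SE 1.15, adjusted p = 1.00 by edgeR) at 25 DPI and 0.25 (SE 1.15, adjusted p = 1.00 by edgeR) at 52 DPI. The 25 DPI value was −1.41 without iDKO replicate 2 of that time. Il1bos, an antisense gene, overlaps Il1b, and in control replicate 2 at 25 DPI the second strand held 32 of the 47 counts given without strand.

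Langerhans cell markers, 7 of 7 detected in every library, also differed within pairs. They summed to 798 and 576 CPM in iDKO and to 1773 and 218 CPM in control at 25 DPI, and to 1295 and 1124 CPM in iDKO and 747 and 574 CPM in control at 52 DPI. Control replicate 1 at 25 DPI, which was second highest of the libraries in Il1b, was the highest in this sum, to which Epcam gave 837.5 CPM, in the T cell sum (771 CPM, 9 of 9 markers detected) and in the melanocyte sum (403 CPM, 7 of 7 detected). It was not the highest in Cd207, the marker that defines Langerhans cells, at 36.7 CPM where 4 other libraries held 47.6 to 68.0 CPM. Erythroid markers summed to 111 CPM in that control library, against 0.628 to 18.3 CPM in the others. Macrophage and monocyte markers summed to 14.9 to 70.8 CPM over the 8 libraries, with Mrc1 at 0 in 7 of them. Neutrophil markers summed to 1.03 to 8.67 CPM, with 3 to 6 of the 9 at 0 in each library. S100a8 and S100a9 also stand in the list of genes that IL-1 and IL-36 induce in keratinocytes. They gave 4.18 and 3.58 CPM of the highest neutrophil sum, that of iDKO replicate 1 at 52 DPI. Ly6g and Retnlg were at 0 counts in all 8, while Cxcr2 was detected in 6, at up to 1.88 CPM. In such tissue RNA, fewer cells of a type and less RNA per cell cannot be told apart, and the part of these markers in the values of Il1b was not tested.

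Il1f9 (ENSMUSG00000044103, GRCm38 chromosome 2, 24186476 to 24193568, plus strand) encodes IL-36γ, a cytokine of keratinocytes that drives psoriasis-like inflammation. It was at 3.42 and 4.54 CPM in iDKO and at 1.96 and 4.29 CPM in control at 25 DPI. By 52 DPI the iDKO libraries held 5.15 and 0.262 CPM, against 3.37 and 2.82 CPM in control. The iDKO library was the higher in 3 pairs, and in the replicate 2 pair of 52 DPI it held 4 counts, with a log2 ratio of −3.43 (−5.38 to −1.95). Its log2 fold change at 52 DPI was −0.18 (SE 1.14, adjusted p = 1.00 by edgeR) and became 0.73 without that library.

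Il33 (ENSMUSG00000024810, GRCm38 chromosome 19, 29925114 to 29960718, plus strand) encodes a nuclear alarm cytokine of epithelia that acts on type 2 immune cells. Its 25 DPI levels were 97.2 and 77.5 CPM in iDKO, against 78.9 and 107 CPM in control, and the groups overlapped. Its 52 DPI levels were 133.8 and 34.3 CPM in iDKO, against 155.4 and 135.9 CPM in control. Both iDKO libraries lay below both control libraries at 52 DPI for 3 members, Il33, Il1r1 and Il1f5, as they did for 10.2% of all genes. The log2 fold change of Il33 at 52 DPI was −0.79 (SE 0.67, adjusted p = 1.00 by edgeR). It rests on iDKO replicate 2: the value was −0.12 without that library and −2.09 without iDKO replicate 1. The log2 ratio within that replicate 2 pair was −1.99 (−2.13 to −1.85), the furthest from 0 among the 4 most abundant members.

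That library, iDKO replicate 2 at 52 DPI, was the lowest of the 8 for 5 members, namely Il1rn, Il1r2, Il33, Il1f9 and Il1f5, and for 10.9% of all tested genes. It was also the lowest in the keratinocyte marker sum, at 29690 CPM, where the 7 other libraries were at 41950 to 58460 CPM. Among these markers Krt14 and Lor were at their lowest there, at 6661 and 2.16 CPM, and the others were not. Dsg1a, at 1072 CPM, was below only control replicate 2 of 52 DPI, at 1136 CPM. T cell markers of this iDKO library summed to 609 CPM, against 122 CPM in control replicate 2 of that time. Its dermal fibroblast markers summed to 286.5 CPM, against 89.9 CPM. Thy1, which T cells also express, gave 168 CPM of the fibroblast sum in iDKO and 72.7 CPM of that in control. All 9 T cell markers and all 8 dermal fibroblast markers were detected in this iDKO library. The part of these markers in the low values of the 5 members was not tested.

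Il1rn (ENSMUSG00000026981, GRCm38 chromosome 2, 24336853 to 24351494, plus strand) encodes the IL-1 receptor antagonist. It was at 144.9 and 90.5 CPM in iDKO and at 88.5 and 110.6 CPM in control at 25 DPI, and at 154 and 40.8 CPM in iDKO and 184 and 96.2 CPM in control at 52 DPI. Fitted log2 fold changes were 0.24 (SE 0.71, adjusted p = 1.00 by edgeR) at 25 DPI and −0.52 (SE 0.71, adjusted p = 1.00 by edgeR) at 52 DPI. The 52 DPI value became 0.14 without iDKO replicate 2. On the scale of CPM per kilobase, Il1rn exceeded the sum of Il1a and Il1b in all 8 libraries, by 27.5 and 3.19 times in iDKO and 4.36 and 21.0 times in control at 25 DPI. At 52 DPI this ratio was 7.04 and 5.17 in iDKO and 10.3 and 5.78 in control. At 25 DPI the replicates of each group lay far apart, in opposite orders in iDKO and control.

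Il1f5 (ENSMUSG00000026983, GRCm38 chromosome 2, 24276954 to 24283426, plus strand) encodes the IL-36 receptor antagonist, whose loss causes pustular psoriasis in people. The 25 DPI libraries held 26.1 and 15.4 CPM in iDKO, against 13.6 and 17.9 CPM in control. The 52 DPI libraries held 10.9 and 10.1 CPM in iDKO, against 11.3 and 12.1 CPM in control, a span narrower than that of any pair of replicates at 25 DPI. It had log2 fold changes of 0.39 (SE 0.48, adjusted p = 1.00 by edgeR) at 25 DPI and −0.15 (SE 0.48, adjusted p = 1.00 by edgeR) at 52 DPI. Per kilobase, Il1f5 exceeded Il1f9 in 7 of the 8 libraries, the exception being iDKO replicate 1 at 52 DPI with a ratio of 0.776.

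Il1r1 (ENSMUSG00000026072, GRCm38 chromosome 1, 40225080 to 40317257, plus strand) encodes the signalling IL-1 receptor. It was at 46.0 and 88.6 CPM in iDKO and at 32.9 and 126 CPM in control at 25 DPI, and at 57.7 and 61.0 CPM in iDKO and 98.1 and 75.8 CPM in control at 52 DPI. It had log2 fold changes of −0.24 (SE 0.69, adjusted p = 1.00 by edgeR) at 25 DPI and −0.55 (SE 0.69, adjusted p = 1.00 by edgeR) at 52 DPI. Leaving out each library in turn kept the 52 DPI value between −0.73 and −0.35. Both iDKO libraries lay below both control libraries at 52 DPI, whereas at 25 DPI the control libraries lay on both sides of the iDKO libraries.

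Il1r2 (ENSMUSG00000026073, GRCm38 chromosome 1, 40074079 to 40125231, plus strand), which encodes the decoy receptor, was at 146.9 and 103.7 CPM in iDKO and at 80.0 and 159 CPM in control at 25 DPI. Values of 169 and 62.1 CPM in iDKO stood against 184.6 and 110.1 CPM in control at 52 DPI. Fitted values on the log2 scale were 0.07 (SE 0.66, adjusted p = 1.00 by edgeR) at 25 DPI and −0.35 (SE 0.66, adjusted p = 1.00 by edgeR) at 52 DPI. Per kilobase, Il1r2 exceeded Il1r1 by 10.7 and 3.90 times in iDKO and 8.12 and 4.22 times in control at 25 DPI. At 52 DPI it did so by 9.76 and 3.40 times in iDKO and 6.28 and 4.85 times in control. The ratio was higher in replicate 1 than in replicate 2 of every group. It was higher in iDKO in both replicate 1 pairs and lower in iDKO in both replicate 2 pairs.

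Counts and medians over gene lists are of edgeR's log2 fold changes without a block. Over the 10 members, the value at 25 DPI was above 0 for 8 and below 0 for 2, with a median of 0.327, where the median of all tested genes was −0.0303. At 52 DPI it was above 0 for 3 members and below 0 for 7, with a median of −0.266 against −0.0115 for all genes. The iDKO library was the higher of both pairs at 25 DPI for 4 members, Il1a, Il18, Il1f9 and Il6, as for 25.5% of all genes. It was the lower of both pairs at 52 DPI for 6 members, Il1a, Il1rn, Il1r1, Il1r2, Il33 and Il1f5, as for 30.4% of all genes. In 3 or 4 of the pairs iDKO was the higher for 3 members, Il18, Il1f9 and Il6 (29.7% of all genes), and the lower for 5, Il1rn, Il1r1, Il1r2, Il33 and Il1f5 (33.0% of all genes). Conversely, 0 members were lower in both pairs at 25 DPI (26.0% of all genes), and 1, Il18, was higher in both at 52 DPI (27.8%). The difference between the times was below 0 for 9 of the 10 members, with Il18 the exception at 0.72 (SE 1.18, adjusted p = 1.00 by edgeR).

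Between 52 and 25 DPI, Il1f5 was the only member whose libraries separated. It held 10.1 to 12.1 CPM in the 4 libraries of 52 DPI, against 13.6 to 26.1 CPM in the 4 libraries of 25 DPI, and 1.64% of all tested genes had all 4 libraries of 52 DPI below those of 25 DPI. The opposite order held for 0 members and 2.65% of all genes. The fitted log2 value over time was −0.71 (SE 0.31, adjusted p = 0.862 by edgeR). Il1a had the largest value, 1.61 (SE 0.83, adjusted p = 0.862 by edgeR), and its libraries overlapped, from 0.850 to 3.97 CPM at 52 DPI against 0.131 to 1.42 CPM at 25 DPI. edgeR called 0 of the 10 members over time (0.0224% of all genes; 0 members at an unadjusted p under 0.05, 4.04% of all genes), and DESeq2 called 0 (0.404% of all genes). The median log2 change of all genes over time was −0.12, and values over time are to be read against that shift. Sex differed with time in these libraries and its part cannot be told apart.

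Of the IL-1 family relatives and receptors, 6 of 12 listed genes had enough counts to be tested. Neither edgeR nor DESeq2 with the block called any. edgeR put 0 under an unadjusted p of 0.05 at 25 DPI (0.42% of all genes) and 1 at 52 DPI (0.802%). The log2 fold change was above 0 for 1 and below 0 for 5 at 25 DPI, and above 0 for 4 and below 0 for 2 at 52 DPI. Il1rl2, the receptor of IL-36, was abundant, at 148 CPM in both iDKO libraries and 196 and 217 CPM in control at 52 DPI. Both iDKO libraries thus lay below both control libraries, an order that 10.2% of all genes shared at that time. The pairs of 25 DPI disagreed for Il1rl2, with 82.9 and 269.8 CPM in iDKO beside 34.8 and 310.1 CPM in control. DESeq2 with the block put Il1rl2 at −0.49 on the log2 scale for 52 DPI and at 0.51 for 25 DPI, each with an SE of 0.38. Il18rap, the accessory chain of the IL-18 receptor, was at 2.26 and 7.13 CPM in iDKO and at 0.816 and 1.25 CPM in control at 52 DPI. At 25 DPI Il18rap was at 0.798 and 1.89 CPM in iDKO and 3.20 and 2.92 CPM in control. Its groups thus separated at both times, in opposite directions, as both iDKO libraries lay above both control libraries at 52 DPI for 11.9% of all genes and below them at 25 DPI for 5.15%. Its log2 fold change was 2.18 (SE 0.86) at 52 DPI and −1.16 (SE 0.84) at 25 DPI, neither called by edgeR (adjusted p = 1.00 for both). T cell markers, 9 of 9 tested, had a median log2 fold change by edgeR of 1.24 at 52 DPI, with 9 above 0, and of −1.72 at 25 DPI, with 9 below 0, and their part in the values of Il18rap was not tested. Il1rap, the shared accessory chain of the IL-1, IL-33 and IL-36 receptors, had a log2 fold change of −0.24 (SE 0.56, adjusted p = 1.00 by edgeR) across both times.

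Il1f6, which encodes IL-36α, was among the relatives too low to test and is named after its values were seen. It had 2 and 1 counts in iDKO at 25 DPI and 9 and 2 counts in iDKO at 52 DPI, against 0 counts in all 4 control libraries. On the CPM scale these were 0.228, 0.0363, 0.283 and 0.131. A count of 0 allows up to 3 counts, which is 0.196 and 0.0596 CPM in control at 25 DPI and 0.111 and 0.235 CPM at 52 DPI. Only the replicate 1 values lay above these limits. The iDKO counts carry counting error too, and that of replicate 1 at 25 DPI is 2, so the limits do not set the groups apart. Il1f8, also too low to test, had 3 and 0 counts in iDKO and 0 and 1 in control at 25 DPI. At 52 DPI Il1f8 had 20 and 0 counts in iDKO and 1 and 3 in control.

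Genes of IL-1 receptor signalling and NF-κB, 24 of 24 tested, had a median log2 fold change of 0.437 at 25 DPI, with 20 above 0 and 4 below, where the median of all genes was −0.0303. At 52 DPI the median was −0.136, with 7 above 0 and 17 below. edgeR without a block called 0 of the 24 in any comparison and put 0 under an unadjusted p of 0.05. DESeq2 with the replicate block called 3 at 25 DPI and 0 at 52 DPI, where it called 0.538% and 0.196% of all genes. With the same block, edgeR called none of all tested genes at 25 DPI. The 3 genes that DESeq2 called were Tnfaip3, Nfkbiz and Nfkb2, which NF-κB induces. Tnfaip3, a ubiquitin-editing enzyme that shuts NF-κB off, was at 156.5 and 828 CPM in iDKO and at 68.6 and 153.5 CPM in control at 25 DPI. Nfkbiz, a nuclear cofactor needed for many responses of keratinocytes to IL-36, was at 340.9 and 908 CPM in iDKO and at 155 and 354.5 CPM in control at 25 DPI. In both pairs of 25 DPI the iDKO library was the higher for each of these genes.

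With the block, the log2 fold change at 25 DPI was 1.80 (SE 0.40, adjusted p = 0.00342 by DESeq2) for Tnfaip3, 1.24 (SE 0.26, adjusted p = 8.88e-04 by DESeq2) for Nfkbiz and 0.97 (SE 0.26, adjusted p = 0.0359 by DESeq2) for Nfkb2. Without the block edgeR gave Tnfaip3 2.15 (SE 0.96, adjusted p = 1.00). At 52 DPI Tnfaip3 was at 399 CPM in iDKO replicate 2 against 866 CPM in its control, and at 276 CPM in iDKO replicate 1 against 281.5 CPM. DESeq2 with the block also called the difference between the times, −2.39 (SE 0.57, adjusted p = 0.0146) for Tnfaip3 and −1.52 (SE 0.36, adjusted p = 0.0155) for Nfkbiz. Both difference calls ended when the replicate 2 pair of 52 DPI was left out, at −1.85 for Tnfaip3 and −1.37 for Nfkbiz. That fit has no replicate at 52 DPI and called almost no gene for the difference, so these losses are not particular to the 2 genes. The difference call of Nfkbiz also ended without the replicate 1 pair of 52 DPI, at −1.65. The 25 DPI call of Tnfaip3 ended without the replicate 2 pair of 25 DPI, at 1.18 (adjusted p = 0.112 by DESeq2). The 25 DPI call of Nfkbiz was made, of the 4 such fits, only in that without the replicate 1 pair of 25 DPI, which has no replicate at that time, and that of Nfkb2 in none of the 4 fits with a pair left out.

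**Figure D4:**
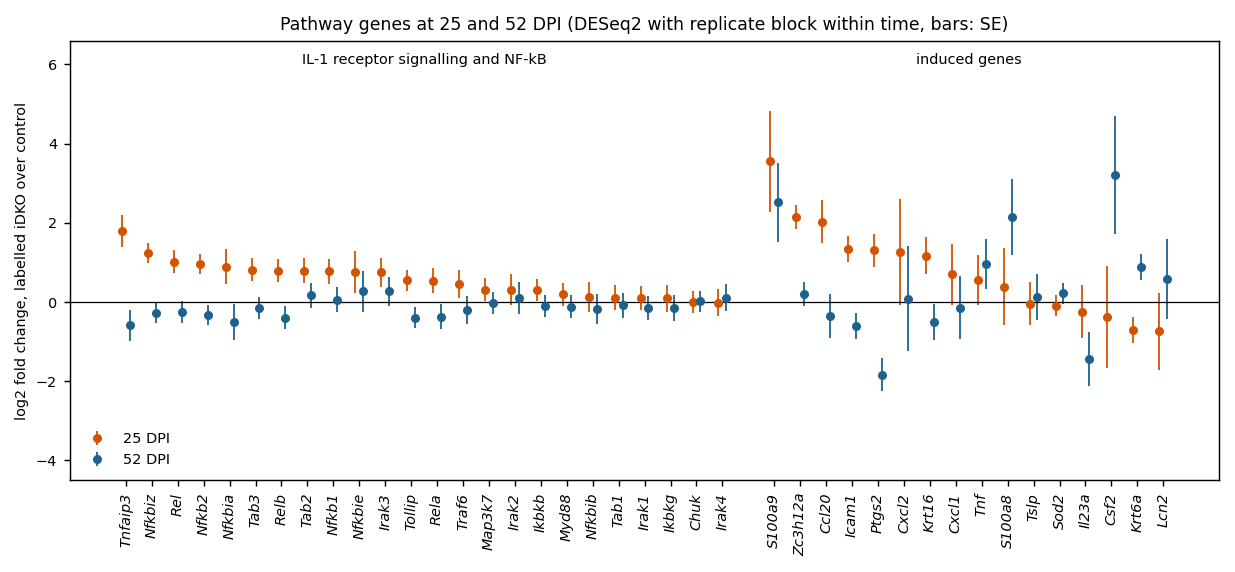
Log2 fold change, labelled iDKO over control, at 25 DPI (orange) and 52 DPI (blue) for the tested genes of IL-1 receptor signalling and NF-κB (24) and of the genes that IL-1 and IL-36 induce in keratinocytes (16), from DESeq2 with the replicate block within time, with bars for the SE. Tnfaip3 and Zc3h12a stand at 1.80 and 2.15 at 25 DPI and at −0.59 and 0.20 at 52 DPI.

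Genes that IL-1 and IL-36 induce in keratinocytes, 16 of 23 tested, had a median log2 fold change of 0.371 at 25 DPI, with 8 above 0 and 8 below, and of 0.191 at 52 DPI. edgeR called 0 of them, with 1 under an unadjusted p of 0.05 at 25 DPI (0.42% of all genes) and 0 at 52 DPI (0.802%). DESeq2 with the block called 3 at 25 DPI, Zc3h12a, Icam1 and Ccl20, where it called 0.538% of all genes. Zc3h12a, an RNase that degrades Il6 and other cytokine transcripts, was at 51.1 and 283.6 CPM in iDKO and at 13.7 and 53.6 CPM in control at 25 DPI. By 52 DPI the iDKO libraries held 123 and 231 CPM, against 86.9 and 240.5 CPM in control. Its log2 fold change at 25 DPI was 2.15 (SE 0.30, adjusted p = 6.71e-09 by DESeq2 with the block), it was also called in the 4 fits with a pair left out, of which those without a 25 DPI pair have no replicate at that time, and edgeR without the block gave 2.31 (SE 1.04, adjusted p = 1.00). The difference between the times for Zc3h12a was −1.95 (SE 0.43, adjusted p = 0.00587 by DESeq2 with the block). It was −1.67 without the replicate 2 pair of 52 DPI and −2.19 without the replicate 1 pair of that time, and neither fit called it. The first of these fits called almost no gene for the difference.

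Icam1, an adhesion molecule for leukocytes, had a log2 fold change of 1.35 (SE 0.33, adjusted p = 0.0138 by DESeq2 with the block) at 25 DPI. Ccl20, a chemokine that attracts type 17 T cells and dendritic cells, had 2.03 (SE 0.55, adjusted p = 0.0375 by DESeq2 with the block). Of the 4 fits with a pair left out, Icam1 was called only in that without replicate 1 of 25 DPI, at 1.67 (adjusted p = 0.00615 by DESeq2), where 1 library per genotype was left at that time. Ccl20 lost its call without replicate 2 of 25 DPI, at 1.29 (adjusted p = 0.38 by DESeq2), and without replicate 1 of 52 DPI, at 2.03 (adjusted p = 0.0905 by DESeq2). The difference between the times for Icam1 was −1.95 (SE 0.47, adjusted p = 0.0162 by DESeq2 with the block). Without the replicate 2 pair of 52 DPI it was −1.52 and not called, in a fit that called almost no gene for the difference.

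Ptgs2, which makes prostaglandins, was at 34.7 and 17.5 CPM in iDKO and at 72.1 and 105 CPM in control at 52 DPI, and at 11.4 and 97.5 CPM in iDKO and 3.86 and 45.5 CPM in control at 25 DPI. DESeq2 with the block called it at 52 DPI, at −1.83 (SE 0.41, adjusted p = 0.00869), and called the difference between the times, at −3.13 (SE 0.59, adjusted p = 2.35e-04). Without the replicate 2 pair of 52 DPI these were −1.08 and −2.38, and neither was called. That fit called almost no gene at 52 DPI or for the difference. S100a9, a subunit of calprotectin, is also among the neutrophil markers used here. DESeq2 with the block called it across both times, at 2.89 (SE 0.69, adjusted p = 0.0113). It was low, at 0.228 and 1.02 CPM in iDKO and 0 and 0.0993 CPM in control at 25 DPI, and at 3.58 and 1.70 CPM in iDKO and 0.408 and 0.470 CPM in control at 52 DPI. Of the 4 fits with a pair left out it was called only in that without replicate 1 of 25 DPI, at 2.80 (adjusted p = 0.00313 by DESeq2). Tnf, an inflammatory cytokine, had a log2 fold change of 0.79 (SE 0.51, adjusted p = 1.00 by edgeR) across both times.

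Genes of the IL-6 family and its signalling, 17 of 17 tested, had a median log2 fold change of 0.277 at 25 DPI, with 11 above 0 and 6 below, and of −0.0166 at 52 DPI. Neither edgeR nor DESeq2 with the block called any. edgeR put 1 under an unadjusted p of 0.05 at 25 DPI (0.42% of all genes) and 0 at 52 DPI (0.802%). Stat3, which carries the IL-6 signal to the nucleus, was at 288 and 732 CPM in iDKO and at 172 and 354.6 CPM in control at 25 DPI. Its log2 fold change there was 0.88 (SE 0.26, adjusted p = 0.0717 by DESeq2 with the block). At 52 DPI Stat3 was at 431 and 352 CPM in iDKO and 428.5 and 421 CPM in control, with −0.14 (SE 0.26) by DESeq2 with the block. Across both times edgeR gave Stat3 0.42 (SE 0.46, unadjusted p = 0.384). Lifr, a receptor of the family, had a value of −0.69 (SE 0.58, adjusted p = 1.00 by edgeR) across both times.

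Of the inflammasome and cytokine processing genes 19 of 23 were tested, and neither tool called any. By edgeR 1 was under an unadjusted p of 0.05 at each time, as were 0.42% of all genes at 25 DPI and 0.802% at 52 DPI. The median log2 fold change was −0.195 at 25 DPI, with 6 above 0 and 13 below, and 0.34 at 52 DPI, with 12 above 0 and 7 below. Aim2, a sensor of cytosolic DNA, was lower in iDKO within each of the 4 pairs, as were 6.7% of all tested genes. It was at 0.798 and 1.09 CPM in iDKO and 2.81 and 2.24 CPM in control at 25 DPI. Across both times it had a log2 fold change of −0.79 (SE 0.45, adjusted p = 1.00 by edgeR). Prtn3, a serine protease of neutrophils, had −2.44 (SE 1.08, adjusted p = 1.00 by edgeR), with 7.49 CPM in control replicate 2 at 25 DPI and at most 0.654 CPM in the 7 other libraries. From the signalling list, Nfkbie had 0.69 (SE 0.48) and Irak3 0.54 (SE 0.39) across both times, neither called by edgeR (adjusted p = 1.00 for both).

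For each member the gene most like it was the tested gene with the highest Pearson correlation of log2 CPM over the 8 libraries, after the mean of each replicate number was subtracted. The highest of so many values is large by choice and is a description only. For Il1b it was Cxcl2, a neutrophil chemokine, with a correlation of 0.943. Cxcl2 was at 0.342 and 2.98 CPM in iDKO and 1.70 and 0.119 CPM in control at 25 DPI, with the same library order as Il1b at that time. At 52 DPI Cxcl2 was at 1.95 and 0.916 CPM in iDKO and 0.667 and 2.35 CPM in control, in another order than Il1b. For Il6 it was Peg3 (0.966), for Il33 Cdh13 (0.977), for Il1rn Prkag2 (0.993), for Il1r2 Cog6 (0.995) and for Il1a Daam1 (0.993). It was Gm19366 for Il1r1 (0.985), Gm19522 for Il18 (0.988), Ifi203-ps for Il1f9 (0.968) and Gm48653 for Il1f5 (0.988). Among the members themselves Il1rn and Il1r2 were the most alike, with a correlation of 0.952.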

How the data were processed

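RNA of trypsin-isolated mouse epidermis was extracted with Trizol and made into libraries with a SMART-seq v4 kit, per the labels' protocols. The submitters' processing notes name STAR 2.5.2a, Trimmomatic 0.35, FastQC 0.11.9 and DESeq2 1.24.0, and the builds GRCm38 and mm10. The sources used here do not give their settings or annotation release. The deposited values are raw counts per gene, with 3 columns per table, of reads without regard to strand and on each strand. The unstranded column was used, and the second-strand column of the replicate 2 libraries was an alternative. Gene symbols and exon lengths came from GENCODE annotation of GRCm38, by identifier, for 54723 of 54838 genes.

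Counts were tested with edgeR 4.0.16 in R 4.3.3, with genes kept by filterByExpr, TMM scaling and quasi-likelihood fits of the 4 group means (4 residual degrees of freedom), or with time and genotype added (5) for comparisons over both times. P values were adjusted over the 17839 tested genes by the Benjamini-Hochberg method and called under 0.05. DESeq2 1.42.0 was the other tool. Adjusted p-values that DESeq2 left blank were not counted. Unblocked p values rest on the spread between replicates, which also differed in strand share. The fits were checked on simulated counts with known changes and the same spread set for every gene. That check does not show how often a change would be called at the spread of these libraries.

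The replicate numbers were taken to pair the libraries, because the deviations of same-numbered libraries from their group means correlated at 0.395 to 0.793 in all 6 pairs of groups. Replicate numbers also differed in strand share in every group, so these correlations do not show that animals were matched. The members and gene lists were chosen with earlier results of these data known. Genes outside the members were named if called in a comparison of genotype. Others were named if they had 1 of the 2 smallest unadjusted p of their list across both times by edgeR. Il1f6, Il1f8, Il1rl2, the values of Stat3 at each time and the marker genes were added after their values were seen. Alternatives were the size factors of DESeq2, no filter, DESeq2, replicate blocks, second-strand counts and each library left out.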

Additional observations from a re-analysis of the deposited data

Results flagged for a closer look

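Il1a was flagged because its effect had opposite signs at the 2 times. The fitted values of Il1rn, Il1r2, Il1f9 and Il1f5 also changed sign between the times. Il1a was the only member higher in iDKO in both pairs at 25 DPI and lower in both pairs at 52 DPI. Its replicate 1 pair at 25 DPI held 3 counts in iDKO and 2 in control. The libraries labelled iDKO were above their paired control in both pairs at 25 DPI, at 0.342 and 1.42 CPM in iDKO and 0.131 and 0.913 CPM in control. They were below it in both pairs at 52 DPI, at 2.23 and 0.850 CPM in iDKO and 3.97 and 1.96 CPM in control. The difference between the log2 fold changes, 52 minus 25 DPI, was −1.67 (SE 1.62), and edgeR's test of that difference did not call it (adjusted p = 1.00). No group had the 4 libraries needed to look for a single outlying library.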

How the results depend on the processing

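Of 730 alternative values of the 50 member results, 655 kept their sign, 75 had the opposite sign and 0 were called, and 68 of the 75 came from leaving out a library. Fits without a whole pair are not among the 730, and 1 of them called Il6 across both times, at 1.79 (adjusted p = 0.00327 by DESeq2 with the block). With 1 library left out in turn, the log2 values at 25 DPI ran from −0.63 to 2.75 for Il1a, −1.41 to 2.41 for Il1b, −0.11 to 0.55 for Il1rn, −0.92 to 1.03 for Il1r1, −0.37 to 0.65 for Il1r2, −0.28 to 1.22 for Il18, −0.32 to 0.15 for Il33, −0.12 to 1.02 for Il1f9 and −0.0067 to 0.74 for Il1f5. At 52 DPI they ran from −0.70 to 0.81 for Il1b, −1.78 to 0.14 for Il1rn, −1.25 to 0.20 for Il1r2, −3.54 to 0.73 for Il1f9 and −0.57 to 1.27 for Il6. The differences between the times ran from −2.17 to 1.67 for Il1b, −1.59 to 0.37 for Il1r1, −1.31 to 0.13 for Il1r2, −0.18 to 1.31 for Il18 and −3.88 to 0.39 for Il1f9. Across both times the values ran from −0.82 to 0.29 for Il1a, −0.33 to 1.02 for Il1b, −0.48 to 0.20 for Il1rn, −0.70 to 0.033 for Il1r1, −0.43 to 0.12 for Il1r2, −0.79 to 0.50 for Il1f9 and −0.091 to 0.23 for Il1f5. Between 52 and 25 DPI they ran from −0.74 to 0.30 for Il1b, −0.23 to 0.45 for Il1rn, −0.33 to 0.40 for Il1r1, −0.19 to 0.35 for Il1r2, −0.51 to 0.22 for Il18, −0.069 to 0.64 for Il33, −1.15 to 0.14 for Il1f9 and −0.49 to 0.17 for Il6. The 16 other member results kept their sign with each library left out, among them Il6 at 25 DPI and across both times and Il18 at 52 DPI.

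With the replicate number as a block, the log2 fold change of Il1r2 at 25 DPI was −0.044, that of Il1f9 across both times −0.0021, and the values over time were −0.051 for Il1rn, 0.13 for Il1r1 and −0.0082 for Il1r2. The replicate block set within each time put Il1f9 across both times at −0.19 by edgeR and −0.25 by DESeq2. DESeq2 with that block and without the replicate 1 pair of 52 DPI put Il6 at −0.76 at 52 DPI. The block changed no call of a member.

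edgeR called 0 genes of all tested at 25 DPI, at 52 DPI, for their difference and across both times, and 4 over time. Without the filter it called 8, 25, 19, 16 and 184 in that order. DESeq2 called 2 at 25 DPI, 1 at 52 DPI, 8 across both times and 72 over time, and with the block set within each time 96, 35, 38 for the difference and 70 across both times. edgeR with that block called 1 across both times. The second-strand counts gave 1 gene over time, and leaving out a library gave 0 to 2 there. The cause of these differences was not tested. With 2 libraries per group and as few as 2 counts for Il1a, only differences well beyond the spread between replicates could be called.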
